A study of Homo sapiens with 8 samples.

Results

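The autophagy and lysosome genes described here are 47 genes listed by symbol that build, load and regulate the autophagosome or make up the lysosome into which it empties. The array identifiers of the probes were matched to RefSeq transcripts. A gene counted as measured where at least 1 of its probes was well above background, by the scanner software's own call, on both arrays of at least 1 group. All 47 of 47 listed genes were measured, among 16955 named genes measured in the series. Of the members, 21 had over 1 probe, and each of these was read on its brightest, by mean log2 signal over all arrays. On the probe read, 46 members were well above background on all 8 arrays, and ULK2 was so on 4.

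The study cultured OVSAHO and KURAMOCHI cells, both human high-grade serous ovarian carcinoma lines, with simvastatin or with L-778123. Simvastatin inhibits HMG-CoA reductase, the enzyme that commits carbon to the mevalonate pathway, and L-778123 inhibits the transferases that attach farnesyl and geranylgeranyl groups to proteins. Total RNA of each of the 4 combinations of line and drug was hybridised to 2 one-colour arrays, and nothing in the labels says that the 2 came from separate cultures, so p-values may measure technical spread only. The concentration and the duration of drug exposure of these cultures are not given in the sources used here. No culture without drug is analysed here, so a difference between simvastatin and L-778123 does not show which drug moved a gene. Every value is a log2 signal minus the 75th percentile of its array, and a difference is simvastatin minus L-778123 unless stated. Adjusted p-values are those of limma with Benjamini-Hochberg adjustment over 33753 probes, and "rose" and "fell" are written of differences with an adjusted p under 0.05. Between 30122 and 33437 probes were well above background per array. All 7 serous carcinoma markers looked at (PAX8, WT1, MUC16, EPCAM, KRT7, KRT8, KRT18) were above background on all arrays. Of 5 fibroblast markers only COL1A1 was kept, not on all arrays, and the leukocyte markers PTPRC and CD14 were above background on all arrays. The part of other cell types in the results was not tested.

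Autophagy delivers cytoplasm and organelles to the lysosome. The ULK kinase complex starts the process, the class III phosphatidylinositol 3-kinase complex marks the membrane, ATG9A, ATG2A and the WIPI proteins feed its growth, and a pair of ubiquitin-like conjugation systems attach the ATG8 proteins (the LC3 and GABARAP families) to it. Cargo receptors such as SQSTM1 (p62) bind ubiquitylated cargo on one side and ATG8 proteins on the other. The MiT/TFE transcription factors TFEB, TFE3 and MITF are known to bind E-boxes, among them the CLEAR element, in promoters of lysosomal and autophagy genes. Conversion of LC3 is the usual protein readout of autophagy. The study counted spots of labelled LC3B protein in OVCAR5 and SKOV3 cells treated with lovastatin. Its LC3 assay thus used other lines and another statin than the arrays, which measured mRNA alone.

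The promoters of lysosomal members that carry the E-box are shown because the MiT/TFE factors are themselves members. RefSeq promoters (GRCh38.p14) of 300 bases, 250 before to 50 after the start, were given for 39 of the 47 members and number 50, since some genes have several starts. The core CACGTG, a palindrome and so the same on both strands, lay in 8 of these 50 promoters (16%) against 7.26% of all 35116 promoters, and the longer TCACGTGA, which holds the core, in 5 (10%) against 0.98%. In the stretches below, read 5′ to 3′ on the gene's strand, capitals mark each CACGTG that lies before the start.
LAMP1, chr13:113297027-113297236, plus strand: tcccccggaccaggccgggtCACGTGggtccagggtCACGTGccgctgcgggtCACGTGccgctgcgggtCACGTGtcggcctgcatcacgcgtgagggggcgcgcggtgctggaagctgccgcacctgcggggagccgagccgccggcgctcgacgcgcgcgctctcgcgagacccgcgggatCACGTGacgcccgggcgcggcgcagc
MCOLN1, chr19:7522563-7522623, plus strand: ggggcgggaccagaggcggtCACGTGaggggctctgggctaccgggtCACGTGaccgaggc
CTSA, chr20:45891273-45891334, plus strand: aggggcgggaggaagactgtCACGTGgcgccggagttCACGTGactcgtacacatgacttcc
ATP6V0D1, chr16:67481191-67481236, minus strand: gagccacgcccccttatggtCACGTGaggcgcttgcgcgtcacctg
NEU1, chr6:31862922-31862967, minus strand: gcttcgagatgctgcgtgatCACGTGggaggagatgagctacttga
CTSD, chr11:1763949-1763994, minus strand: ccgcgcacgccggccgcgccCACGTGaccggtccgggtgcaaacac

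LAMP1 held 5 cores before its start and MCOLN1 and CTSA held 2 each. ATG3 and ATG14 were the other members with a core, and their promoters are not shown. Of these 8 genes, NEU1 rose in both lines, CTSD rose in OVSAHO and MCOLN1 fell in KURAMOCHI. The remaining genes, ATG3, ATG14, LAMP1, ATP6V0D1 and CTSA, passed in neither line. Among all genes tested, 26.4% were higher and 27.5% lower in OVSAHO, and 17.1% and 18.4% in KURAMOCHI. A match of letters is a description of the sequence and not evidence that a factor binds there.

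In OVSAHO, 25 of the 47 members were higher with simvastatin than with L-778123, 3 were lower and 19 did not pass. Of all 16955 genes tested, 26.4% were higher and 27.5% lower. SQSTM1 and GABARAPL1 exceeded a fold of 2 upward and no member did so downward, against 5.69% and 5.88% of all genes. The median difference over the members was 0.26 (log2) against 0.01 over all genes tested. In KURAMOCHI, 13 members were higher, 6 were lower and 28 did not pass, against 17.1% higher and 18.4% lower of all genes, and no member reached a fold of 2 in either direction (2.44% and 2.94% of all genes). The median over the members was 0.11 there, against 0.01 over all genes. The arrays of the drugs did not overlap, with simvastatin higher, for 30 members in OVSAHO (41.2% of all genes) and 26 in KURAMOCHI (37.5%). They did not overlap, with simvastatin lower, for 7 members in OVSAHO (39.7%) and 13 in KURAMOCHI (36.8%). In bulk RNA, fewer cells of a kind and less RNA per cell cannot be told apart. The KURAMOCHI counts were the less steady: leaving out 1 array at a time gave 6 to 12 higher and 2 to 4 lower. In OVSAHO this gave 17 to 24 higher and 2 or 3 lower. Of the calls above, 16 rises and 2 falls in OVSAHO and 6 rises and 2 falls in KURAMOCHI passed, by adjusted p, under each of the 18 other ways the data were fitted.

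**Figure D1:**
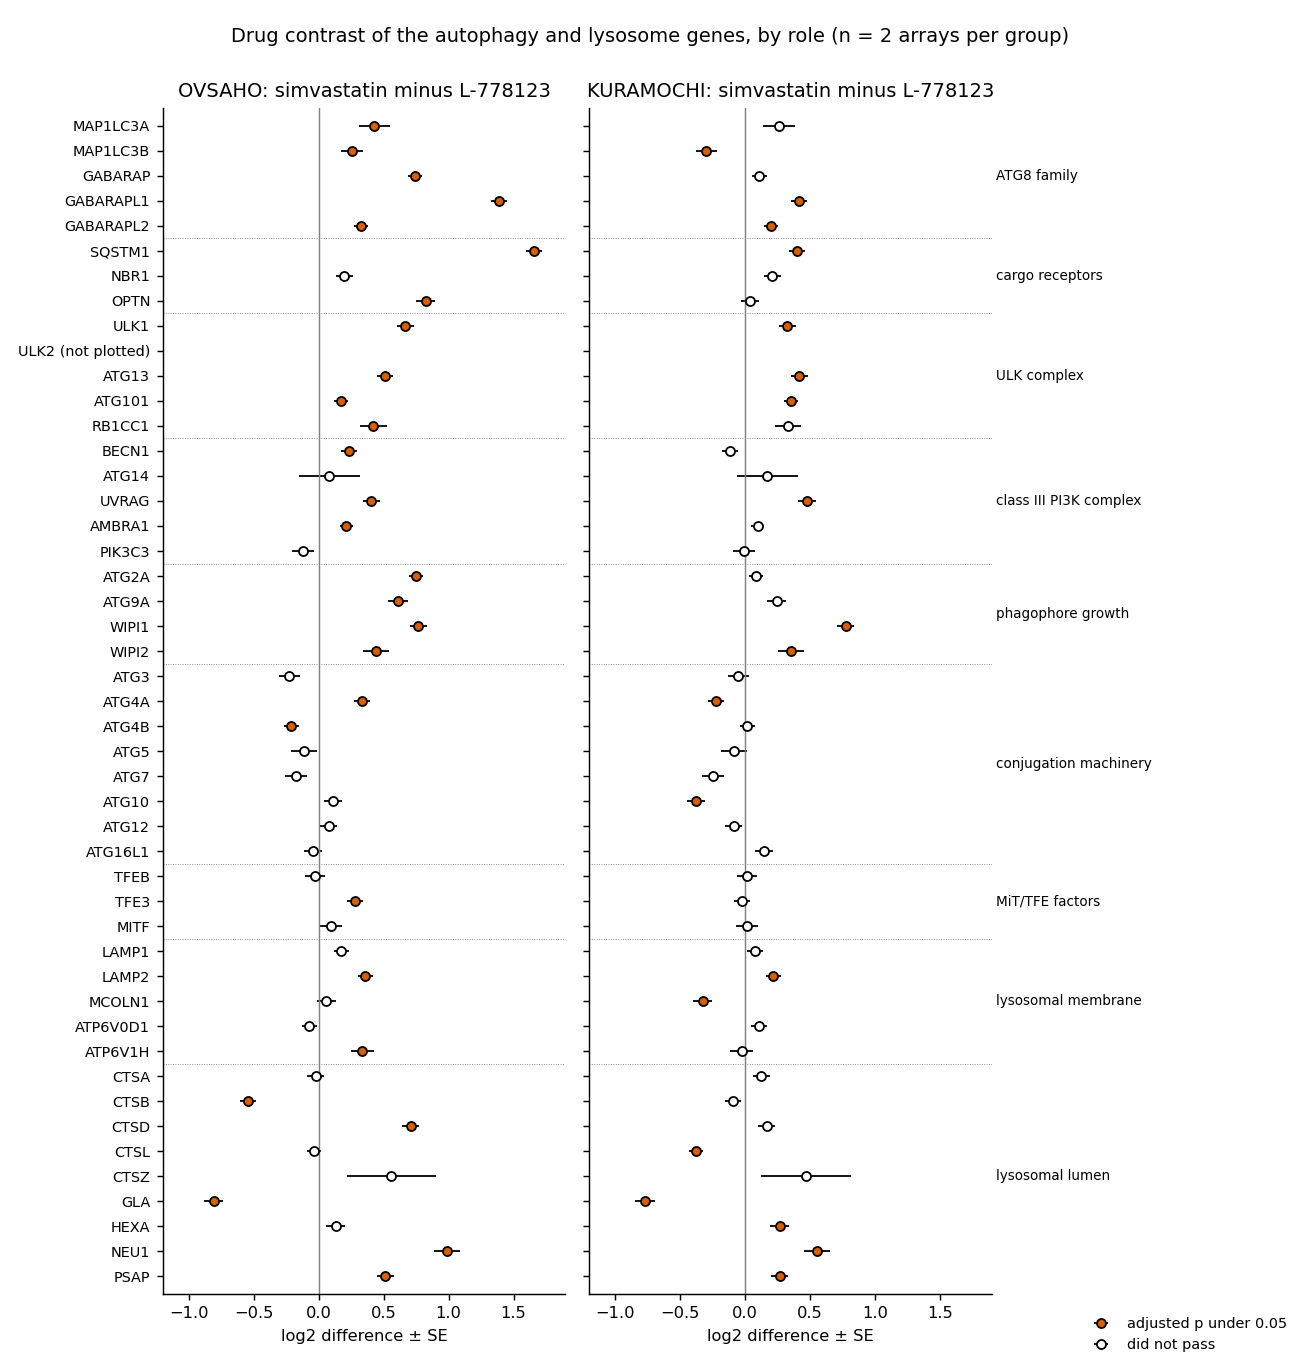
Log2 difference between simvastatin and L-778123 (horizontal axis, point, with its standard error as a bar) for the members, grouped by role, in OVSAHO (left) and KURAMOCHI (right), 2 arrays per group. Filled points had an adjusted p under 0.05. Most filled points lie right of 0, and ULK2, which was not well above background in OVSAHO, is not plotted.

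The ATG8 genes encode the ubiquitin-like proteins that are bound to the autophagosome membrane. All 5 rose with simvastatin in OVSAHO, where 26.4% of all genes were higher and 27.5% lower. In KURAMOCHI GABARAPL1 and GABARAPL2 rose, MAP1LC3B fell, and MAP1LC3A and GABARAP did not pass, against 17.1% higher and 18.4% lower of all genes. GABARAPL1 had values of 2.40 and 2.42 with simvastatin and 1.04 and 1.01 with L-778123 in OVSAHO. In KURAMOCHI its values were 1.81 and 1.73 against 1.33 and 1.38. The drugs did not overlap in either line, and the gap was wider in OVSAHO. The difference was 1.39 ± 0.06 (SE, 2.62-fold, adjusted p = 5.13e-05) in OVSAHO and 0.41 ± 0.06 (1.33-fold, adjusted p = 0.00485) in KURAMOCHI, and its other probe gave 1.57 and 0.48.

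MAP1LC3B, which encodes the LC3B protein most used to follow autophagy, moved in opposite directions. Its values in OVSAHO were 3.10 and 3.03 with simvastatin and 2.87 and 2.75 with L-778123. In KURAMOCHI they were 2.77 and 2.77 with simvastatin and 3.16 and 2.98 with L-778123. Simvastatin arrays were thus the higher in OVSAHO and the lower in KURAMOCHI, without overlap. The differences were 0.26 ± 0.08 (adjusted p = 0.0461) and -0.30 ± 0.08 (adjusted p = 0.0403). Both calls were marginal: they ended under 9 and 10 of 18 alternatives, with adjusted p up to 0.208 and 0.204. The second probe of MAP1LC3B gave 0.52 and -0.28, both past the threshold.

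MAP1LC3A encodes LC3A. It had 1.68 and 1.69 with simvastatin and 1.12 and 1.40 with L-778123 in OVSAHO, a difference of 0.43 ± 0.12 (adjusted p = 0.0317). In KURAMOCHI it had -0.57 and -0.49 against -0.91 and -0.67, a difference of 0.26 ± 0.12 that did not pass (adjusted p = 0.162). The arrays with L-778123 were the lower in both lines, and all 4 KURAMOCHI arrays lay below all 4 OVSAHO arrays. The OVSAHO call ended under 8 of 18 alternatives.

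GABARAP had 6.39 and 6.48 with simvastatin and 5.69 and 5.70 with L-778123 in OVSAHO, a rise of 0.74 ± 0.06 (1.67-fold, adjusted p = 0.000277). In KURAMOCHI it had 6.36 and 6.34 against 6.24 and 6.24, a difference of 0.11 ± 0.06 (adjusted p = 0.193). GABARAPL2 had 3.23 and 3.29 against 2.95 and 2.92 in OVSAHO and 3.56 and 3.54 against 3.35 and 3.35 in KURAMOCHI. Its rises of 0.33 ± 0.05 and 0.20 ± 0.05 passed in both lines (adjusted p = 0.00417 and 0.036), the KURAMOCHI call ending under 12 of 18 alternatives.

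SQSTM1, the cargo receptor p62 and itself a substrate of autophagy, had the largest rise of any member in OVSAHO. Its values were 6.35 and 6.29 with simvastatin and 4.70 and 4.63 with L-778123, a rise of 1.66 ± 0.06 (3.16-fold, adjusted p = 3.34e-05). In KURAMOCHI the values were 5.66 and 5.72 against 5.28 and 5.29, a rise of 0.40 ± 0.06 (1.32-fold, adjusted p = 0.00552). The KURAMOCHI arrays of both drugs lay between the OVSAHO arrays of the drugs. Of the other cargo receptors, OPTN (optineurin) rose in OVSAHO by 0.82 ± 0.07 (adjusted p = 0.000442) and gave 0.04 ± 0.07 in KURAMOCHI (adjusted p = 0.727). NBR1 gave 0.20 and 0.21 and passed in neither line (adjusted p = 0.0518 and 0.0601).

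Of the 14 members that start and enlarge the autophagosome, 11 rose and none fell in OVSAHO, where 26.4% of all genes were higher and 27.5% lower. In KURAMOCHI 6 rose and none fell, against 17.1% and 18.4% of all genes. Of the ULK complex, ULK1, ATG13, ATG101 and RB1CC1 (FIP200) rose in OVSAHO by between 0.17 and 0.67, and ULK1, ATG13 and ATG101 rose in KURAMOCHI by between 0.32 and 0.42. ULK1, the kinase, had rises of 0.67 ± 0.07 (adjusted p = 0.000715) and 0.32 ± 0.07 (adjusted p = 0.016). ULK2 was not well above background on any OVSAHO array, so no difference between drugs is given for that line. Of the class III phosphatidylinositol 3-kinase complex and its partners, UVRAG rose in both lines by 0.41 ± 0.07 and 0.47 ± 0.07, and BECN1 (Beclin 1) and AMBRA1 rose in OVSAHO by 0.24 ± 0.06 and 0.21 ± 0.05. The catalytic subunit PIK3C3 gave -0.12 and -0.01, and ATG14 gave 0.08 and 0.17, with no call. The OVSAHO calls of BECN1 and AMBRA1 each ended under 7 of 18 alternatives, and that of RB1CC1 under 5. The rise of AMBRA1 rests on its brighter probe. The dimmer probe fell by 0.42 ± 0.13 in OVSAHO (adjusted p = 0.0396) and by 0.72 ± 0.13 in KURAMOCHI (adjusted p = 0.00999).

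All 4 members that feed the growing membrane rose in OVSAHO, where 26.4% of all genes were higher. WIPI1, which binds the lipid that the kinase complex makes, stood at 3.74 and 3.86 with simvastatin and 3.01 and 3.06 with L-778123 in OVSAHO, and at 4.60 and 4.57 against 3.78 and 3.84 in KURAMOCHI. Its rises were 0.77 ± 0.06 (1.70-fold, adjusted p = 0.000398) and 0.77 ± 0.06 (1.71-fold, adjusted p = 0.000886). WIPI1, with other members whose array values are given from here on, was picked out after its values were seen. WIPI2 rose in both lines by 0.44 ± 0.10 and 0.36 ± 0.10. The lipid transfer protein ATG2A rose in OVSAHO by 0.75 ± 0.05 (adjusted p = 0.000225) and gave 0.08 ± 0.05 in KURAMOCHI, and the scramblase ATG9A rose in OVSAHO by 0.61 ± 0.08 (adjusted p = 0.00165) and gave 0.24 ± 0.08 in KURAMOCHI (adjusted p = 0.0599).

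The conjugation machinery attaches ATG8 proteins to membrane. Of its 8 members, in OVSAHO ATG4A rose by 0.33 ± 0.06, ATG4B fell by 0.21 ± 0.06 and 6 did not pass. In KURAMOCHI none rose, ATG4A fell by 0.22 ± 0.06, ATG10 fell by 0.38 ± 0.07 and 6 did not pass. Of all genes, 26.4% were higher and 27.5% lower in OVSAHO, and 17.1% and 18.4% in KURAMOCHI. ATG4A, a protease that trims ATG8 proteins, had 0.97 and 0.98 against 0.64 and 0.63 in OVSAHO and -0.11 and -0.01 against 0.15 and 0.17 in KURAMOCHI. It was thus, with MAP1LC3B, 1 of the 2 members called in opposite directions in the lines, where 3.18% of all genes were. The fall of ATG4A in KURAMOCHI was marginal (adjusted p = 0.0356) and ended under 12 of 18 alternatives, with adjusted p up to 0.156. The fall of ATG4B ended under 10 of 18, and its other probe (NM_013325) gave 0.003 in OVSAHO (adjusted p = 0.979). The dimmer probe of ATG10 fell in both lines, by 0.41 ± 0.08 in OVSAHO (adjusted p = 0.00842) and 0.38 ± 0.08 in KURAMOCHI (adjusted p = 0.018). The conjugating enzymes and their partners ATG3, ATG5, ATG7, ATG12 and ATG16L1 had differences between -0.24 and 0.15 in the lines, none past the threshold on the probe read. The other probe of ATG7 fell in OVSAHO by 0.33 ± 0.08 (adjusted p = 0.0187).

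Among the MiT/TFE factors, TFE3 rose in OVSAHO by 0.28 ± 0.06 (adjusted p = 0.014) and gave -0.02 ± 0.06 in KURAMOCHI, and MITF gave 0.09 and 0.01 with no call. The reading of TFEB depended on its probe. The brighter probe (NM_001271943) had 2.27 and 2.47 with simvastatin and 2.41 and 2.39 with L-778123 in OVSAHO, and 4.28 and 4.29 against 4.26 and 4.28 in KURAMOCHI. Its differences were -0.03 ± 0.08 and 0.01 ± 0.08, and the drugs overlapped in both lines. The other probe (NM_007162) had 4.14 and 4.11 against 2.53 and 2.63 in OVSAHO, and 2.32 and 2.40 against 1.69 and 1.54 in KURAMOCHI. It rose by 1.55 ± 0.08 (adjusted p = 8.04e-05) and by 0.75 ± 0.08 (adjusted p = 0.00183), with no overlap in either line. The probes also opposed each other between the lines, as given below. Which of them reports the level of TFEB mRNA was not tested.

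At the lysosomal membrane, the glycoprotein LAMP2 rose in both lines by 0.36 ± 0.06 (adjusted p = 0.0042) and 0.22 ± 0.06 (adjusted p = 0.0385). That is the reading of the brightest of its 3 probes (NM_001122606), and its KURAMOCHI call ended under 10 of 18 alternatives. The probe of NM_002294 also rose in both lines, by 0.48 and 0.67, whereas that of NM_013995 gave 0.23 in OVSAHO and -0.20 in KURAMOCHI and passed in neither. LAMP1 gave 0.17 and 0.08 with no call. The V-ATPase subunit ATP6V1H rose in OVSAHO by 0.34 ± 0.09 (adjusted p = 0.0242) and gave -0.03 in KURAMOCHI, while ATP6V0D1 gave -0.07 and 0.11 with no call. MCOLN1, the lysosomal calcium channel TRPML1, gave 0.06 in OVSAHO and fell in KURAMOCHI by 0.33 ± 0.07 (adjusted p = 0.0201). The calls of ATP6V1H in OVSAHO and MCOLN1 in KURAMOCHI each ended under 6 of 18 alternatives.

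The soluble enzymes of the lumen split. NEU1, the lysosomal sialidase, had 4.35 and 4.45 with simvastatin and 3.52 and 3.30 with L-778123 in OVSAHO, and 4.29 and 4.28 against 3.81 and 3.65 in KURAMOCHI. It rose by 0.99 ± 0.10 (1.98-fold, adjusted p = 0.000748) and 0.56 ± 0.10 (1.47-fold, adjusted p = 0.0104). GLA, the alpha-galactosidase A that is deficient in Fabry disease, went the other way. Its values were 4.02 and 4.09 against 4.79 and 4.95 in OVSAHO and 3.52 and 3.58 against 4.35 and 4.30 in KURAMOCHI. It was 1.75-fold lower in OVSAHO (-0.81 ± 0.07, adjusted p = 0.000554) and 1.71-fold lower in KURAMOCHI (-0.77 ± 0.07, adjusted p = 0.00144), and was the 1 member lower in both lines, where 12.4% of all genes were.

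Among the cathepsins, the aspartic protease CTSD had 4.84 and 4.82 against 4.06 and 4.17 in OVSAHO, a rise of 0.71 ± 0.06 (adjusted p = 0.000548), and gave 0.17 ± 0.06 in KURAMOCHI (adjusted p = 0.105). The cysteine protease CTSB reached at most 5.08 with simvastatin and at least 5.57 with L-778123 in OVSAHO and fell by 0.55 ± 0.06 (adjusted p = 0.0011), with -0.09 ± 0.06 in KURAMOCHI. CTSL gave -0.04 in OVSAHO and fell in KURAMOCHI by 0.38 ± 0.06 (adjusted p = 0.00531). CTSZ had 1.64 and 0.55 with simvastatin in OVSAHO, so its replicates differed by more than its drugs, and its difference of 0.56 ± 0.34 did not pass. Without replicate 1 of that group the difference was 0.02, and without replicate 2 it passed (adjusted p = 0.00852). PSAP, the precursor of the saposins, rose in both lines by 0.51 ± 0.07 and 0.27 ± 0.07, HEXA rose in KURAMOCHI by 0.27 ± 0.07, and CTSA passed in neither. The HEXA call ended under 10 of 18 alternatives.

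Across both lines, 12 members rose in each of them, against 10.6% of all genes. They were GABARAPL1, GABARAPL2, SQSTM1, ULK1, ATG13, ATG101, UVRAG, WIPI1, WIPI2, LAMP2, NEU1 and PSAP. Of these, 5 passed in both lines under each of the 18 alternatives, namely GABARAPL1, SQSTM1, ATG13, UVRAG and WIPI1. ATG101 lost its OVSAHO call under 13 of them. In KURAMOCHI, GABARAPL2 lost its call under 12, WIPI2 and LAMP2 under 10 each, PSAP under 8, ULK1 under 6 and NEU1 under 3, and WIPI2 lost its OVSAHO call under 4. Other members, such as OPTN and ATG2A, rose in OVSAHO without passing in KURAMOCHI. Others again passed in neither line, among them TFEB, whose other probe rose in both. A pass in a single line is no evidence of a difference between the lines, which was tested by itself as the OVSAHO difference minus the KURAMOCHI difference. For 12 members this was above 0 and for 1, CTSB, below 0, with 34 not passing, against 13.4% and 14% of all genes. SQSTM1 had the largest, 1.26 ± 0.08 (2.39-fold, adjusted p = 0.000754), and was the 1 member past a fold of 2 upward, with none downward (4.29% and 3.3% of all genes). It was followed by GABARAPL1 with 0.97 ± 0.08 (adjusted p = 0.0015), OPTN with 0.79 ± 0.10 (adjusted p = 0.00514), ATG2A with 0.67 ± 0.08 (adjusted p = 0.0035) and GABARAP with 0.63 ± 0.08 (adjusted p = 0.00485). MAP1LC3B and ATG4A differed by 0.55 ± 0.12 (adjusted p = 0.0229) and 0.56 ± 0.08 (adjusted p = 0.00829). WIPI1 and GLA gave -0.01 ± 0.09 and -0.04 ± 0.11, and NEU1 gave 0.43 ± 0.14, which did not pass (adjusted p = 0.0799). Leaving out single arrays gave 7 to 11 members above 0 and 0 or 1 below. The calls that passed under each of the 16 alternatives were those of GABARAP, GABARAPL1, SQSTM1, OPTN, ATG2A and ATG4A. The difference of MAP1LC3B lost its call under 7 of them.

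**Figure D2:**
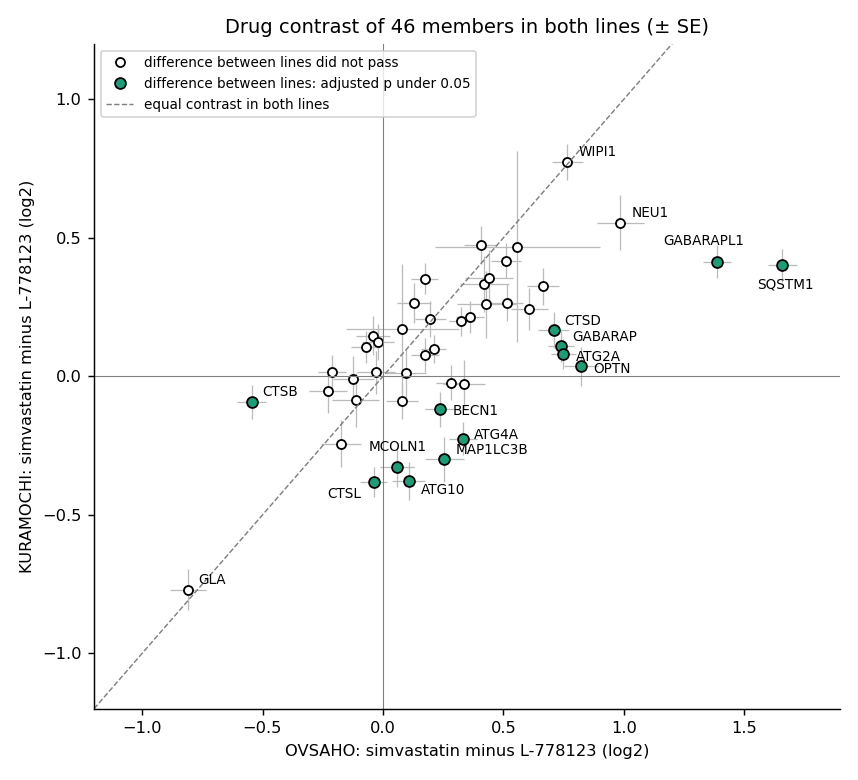
Log2 difference between simvastatin and L-778123 in OVSAHO (horizontal axis) and KURAMOCHI (vertical axis) for the members other than ULK2, with standard errors as bars. Filled points differ between the lines (adjusted p under 0.05), the dashed line marks equal differences, and SQSTM1 and GABARAPL1 lie farthest to its right while WIPI1 and GLA lie on it.

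The lines also differed in the level of most members, as of most genes, taking both drugs together. In OVSAHO 21 members were higher than in KURAMOCHI and 21 lower, and 5 did not pass. These shares, 44.7% each way, were near the 42.4% and 40.5% of all genes. With a fold of at least 2 besides, 6 were higher and 8 lower (18.3% and 16.4% of all genes). Among the 8 were ULK2, which passed the filter through its KURAMOCHI arrays alone, and TFEB, whose probes opposed each other. CTSB was the most raised in OVSAHO, by 2.53 ± 0.04 (5.78-fold), followed by ATG10 at 2.19 ± 0.05, MAP1LC3A at 2.13 ± 0.09 (4.38-fold), ATG12 at 1.64 ± 0.05, CTSD at 1.19 ± 0.05 and PIK3C3, which was 2.15-fold higher. In the other direction, ULK2 was well above background on the KURAMOCHI arrays alone and was at least 13.7-fold higher in KURAMOCHI with simvastatin and at least 19.0-fold higher with L-778123. These bounds set the bright group's mean against the lowest signal of any probe well above background on each dim array. ATP6V1H was lower in OVSAHO by 1.96 ± 0.06 on the log2 scale, ATG5 by 1.49 ± 0.07, ATG14 by 1.36 ± 0.17, ATG9A by 1.25 ± 0.05, MCOLN1 by 1.18 ± 0.05 and ATG7 by 1.16 ± 0.06. TFEB was lower in OVSAHO by 1.89 ± 0.06 on its brighter probe and was higher in OVSAHO by 1.36 ± 0.06 on the other. On the probes read, SQSTM1 and MAP1LC3B differed between the lines by 0.01 ± 0.04 and 0.02 ± 0.06 (adjusted p = 0.912 and 0.767). The dimmer probe of MAP1LC3B gave -0.53 ± 0.04 (adjusted p = 4.86e-05), lower in OVSAHO. SQSTM1 passed as lower in OVSAHO in the authors' table, at -0.14, and under quantile normalization. Line and drug sat in separate positions of 1 slide, so position and group cannot be told apart.

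**Figure D3:**
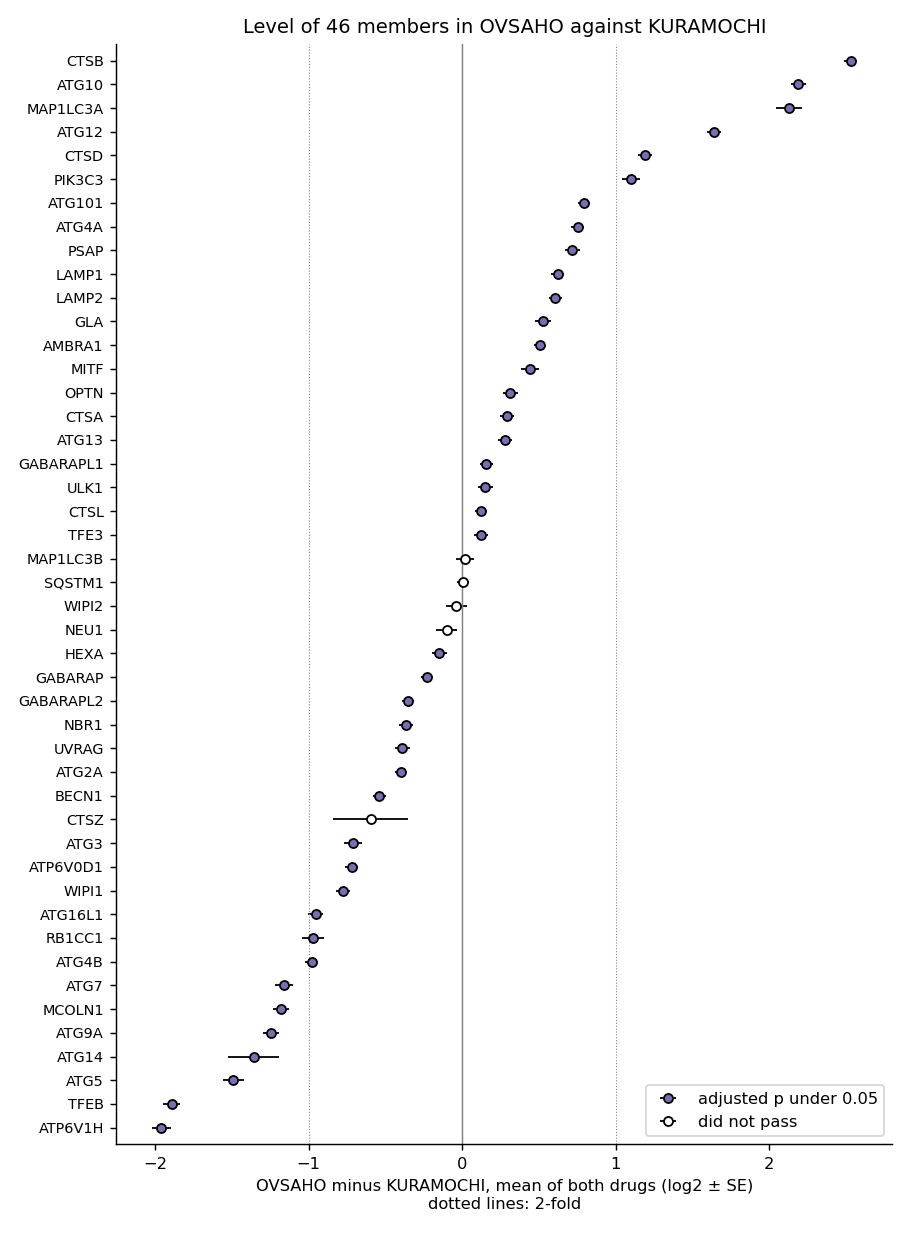
Log2 level in OVSAHO minus KURAMOCHI, averaged over both drugs (horizontal axis, point, with its standard error as a bar), for the members other than ULK2, in order of the difference. Filled points had an adjusted p under 0.05, dotted lines mark a fold of 2, and CTSB, ATG10 and MAP1LC3A lie at one end with ATP6V1H and TFEB (brighter probe) at the other.

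The remaining genes of the same pathways were read from lists that hold no member. Of 122 genes listed, 117 were measured. In OVSAHO 51 were higher with simvastatin, 24 lower and 42 did not pass, with a median of 0.12, where 26.4% of all genes were higher and 27.5% lower. In KURAMOCHI 35 were higher, 12 lower and 70 did not pass, with a median of 0.04, against 17.1% and 18.4% of all genes. As shares of the list these were 43.6% higher and 20.5% lower in OVSAHO and 29.9% higher and 10.3% lower in KURAMOCHI. The difference between the lines was above 0 for 23 and below 0 for 11 (19.7% and 9.40%, against 13.4% and 14% of all genes). In level OVSAHO was higher for 62 and lower for 45 (53.0% and 38.5%, against 42.4% and 40.5%). Of 10 other cargo receptors, 7 rose and 1 fell in OVSAHO, and 5 rose and none fell in KURAMOCHI. Of 22 genes of lysosomal nutrient sensing, 11 rose and 3 fell in OVSAHO and 8 rose and 1 fell in KURAMOCHI. Of 15 other lysosomal membrane genes, 7 rose and 2 fell in OVSAHO and 8 rose and none fell in KURAMOCHI. Of 30 other lumenal genes, 14 rose and 8 fell in OVSAHO and 9 rose and 6 fell in KURAMOCHI, so that the falls, at 26.7% and 20%, were near the shares of all genes. The 13 other V-ATPase genes gave 3 rises and 3 falls in OVSAHO and 1 rise and 3 falls in KURAMOCHI, in OVSAHO 23.1% each way and again close to all genes.

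DEPTOR, an inhibitor of the mTOR kinase complexes, rose by 1.95 ± 0.10 in OVSAHO and 1.05 ± 0.10 in KURAMOCHI. CALCOCO2 (NDP52), a cargo receptor for bacteria and mitochondria, rose by 1.24 ± 0.06 in OVSAHO and 0.64 ± 0.06 in KURAMOCHI. DDIT4 (REDD1), a stress-induced inhibitor of mTOR signalling, rose by 1.22 ± 0.07 and 0.89 ± 0.07. The cathepsin CTSV fell in OVSAHO by 1.44 ± 0.09 and in KURAMOCHI by 0.77 ± 0.09, and CTSC fell by 1.09 ± 0.07 and 0.93 ± 0.07. CTSF rose by 0.64 ± 0.07 in OVSAHO and 1.08 ± 0.07 in KURAMOCHI. These 6 genes were picked for passing a fold of 2 in at least 1 line, and each was called the same way in the other. Past a fold of 2, 4 of the 117 genes were higher and 2 lower in OVSAHO, against 5.69% and 5.88% of all genes. In KURAMOCHI 2 were higher and 0 lower, against 2.44% and 2.94%. MAP1LC3C, an LC3 gene chosen after its values were seen, was well above background on both OVSAHO arrays with simvastatin and on no other array. It thus passed the filter only through the group where it was high, and its value is a description alone. By the bound used for ULK2, it was at least 5.55-fold higher with simvastatin than with L-778123 in OVSAHO. It is counted above among the genes higher in OVSAHO, in the difference between the lines and in level.

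**Figure D4:**
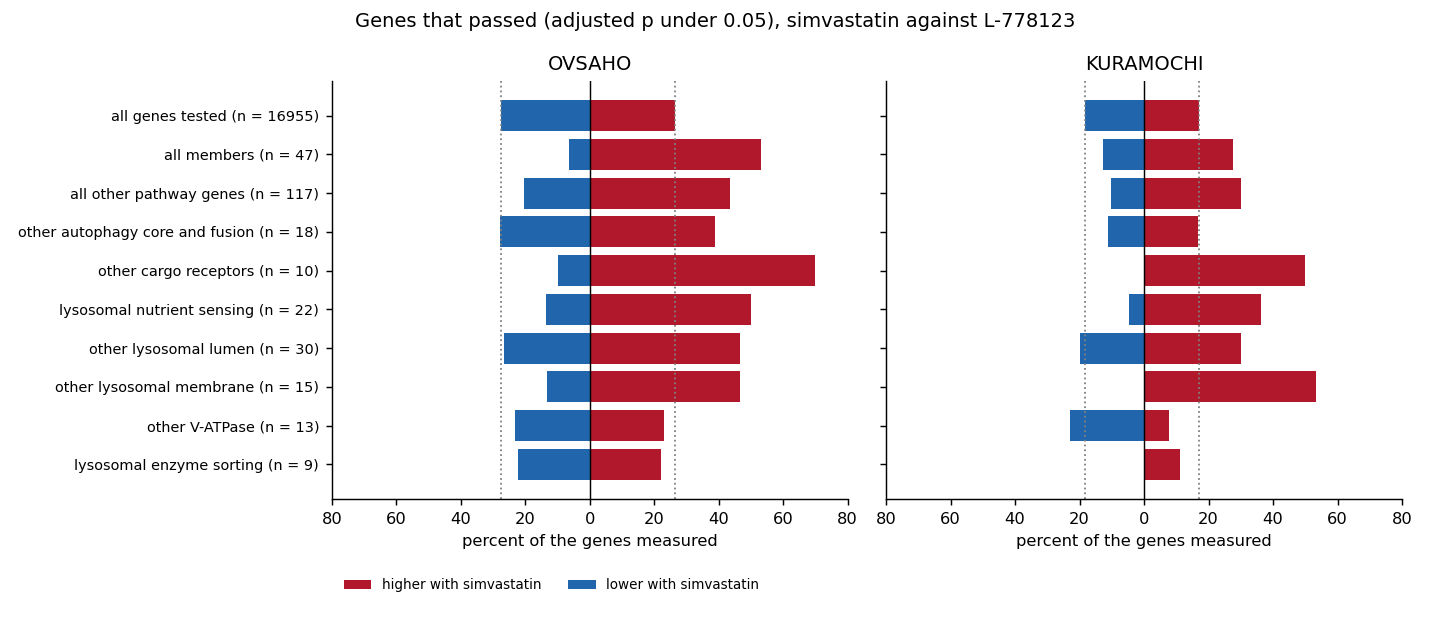
Share of the measured genes of each list that were higher (right of 0) or lower (left of 0) with simvastatin than with L-778123, as a percentage of the list, in OVSAHO and KURAMOCHI. Dotted lines carry the shares of all 16955 genes tested, and the members exceed the higher share in both lines (53.2% and 27.7%).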

How the data were processed

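The deposited scanner files hold 1-colour Agilent Feature Extraction (11.5.1.1) output, and the gProcessedSignal intensity in them was background-subtracted by the authors' software. A deposited table of linear intensity values, quantile normalized by the authors as its values show, served as an alternative. Outlier spots were left out, spots of a probe averaged, log2 taken and the 75th percentile of each array subtracted. Of 58201 probes, 58162 were used and 33753 kept (in 1 or more groups, both arrays well above background). Probes were named through RefSeq transcripts (24768 of 50069 identifiers). The 4 group means were fitted with limma 3.58.1 (R 4.3.3) over 8 arrays, with Benjamini-Hochberg adjustment and a threshold of 0.05; the authors' fold of 2 was counted beside it. The fit was tested on simulated data. The number of arrays limits the precision. Members and lists were chosen with earlier results of these data known. Array values are given for the ATG8 genes, for members past a fold of 2 and for further members picked after their values were seen, and other pathway genes were named as up to 3 largest rises and falls per line past a fold of 2. Alternatives changed the filter, background correction, scaling, probe, test, block and arrays. A marker of the leukocyte list is not reported here.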

Additional observations from a re-analysis of the deposited data

Results flagged for a closer look

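The difference between simvastatin and L-778123 itself differed between OVSAHO and KURAMOCHI for 13 members, by limma's test of the difference (adjusted p under 0.05, OVSAHO minus KURAMOCHI, log2). The largest were SQSTM1 at 1.26, GABARAPL1 at 0.97, OPTN at 0.79, ATG2A at 0.67 and GABARAP at 0.63. ATG4A at 0.56, MAP1LC3B at 0.55, CTSD at 0.54, ATG10 at 0.48, MCOLN1 at 0.39, BECN1 at 0.35 and CTSL at 0.34 followed. CTSB, at -0.45, was the 1 member with the difference turned. Under the 16 alternatives the call was lost under 10 for CTSL, 9 each for BECN1 and MCOLN1, 8 for ATG10 and 5 for CTSB. ATG10, MCOLN1 and CTSL fell in KURAMOCHI and gave 0.11, 0.06 and -0.04 in OVSAHO, which did not pass. OPTN and ATG2A rose in OVSAHO and gave 0.04 and 0.08 in KURAMOCHI, which did not pass. The dimmer probe of ATG10 gave a difference between the lines of -0.03 that did not pass (adjusted p = 0.867).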

How the results depend on the processing

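Of 845 member values for the drug contrast under alternatives in OVSAHO, 746 kept their sign and side of the threshold, and in KURAMOCHI 716 of 845 did. With a fold of at least 2 besides the adjusted p, members higher and lower were 2 and 0 in OVSAHO, 0 and 0 in KURAMOCHI, 1 and 0 for the difference between lines and 6 and 8 between lines. For the other pathway genes these were 4 and 2, 2 and 0, 1 and 0, and 20 and 16. The shares of all genes were 5.69% and 5.88%, 2.44% and 2.94%, 4.29% and 3.3%, and 18.3% and 16.4%. Without a filter on dim probes, which tests more probes, members higher and lower were 7 and 3 in KURAMOCHI and 6 and 0 for the difference, and other pathway genes 17 and 7 and 8 and 1. The methods' analysis of variance with Tukey's test called 7 members higher and 2 lower and 19 other pathway genes higher in KURAMOCHI. The cause was not tested. In OVSAHO 8 members lost their call under that test and 9 without the filter. Shares of all genes called by these fits are not given, so the counts do not show whether members lost more calls than other genes.

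Leaving out each array in turn gave 17 to 24 members higher and 2 to 3 lower in OVSAHO, 6 to 12 and 2 to 4 in KURAMOCHI, 7 to 11 and 0 to 1 for the difference, and 18 to 20 and 20 to 21 between lines. Other pathway genes were 39 to 46 higher and 16 to 21 lower in OVSAHO, 17 to 34 and 6 to 13 in KURAMOCHI, 11 to 19 and 1 to 6 for the difference, and 59 to 61 and 42 to 45 between lines. Each such fit rests on a lone array in 1 group, assumed to vary like the others. KURAMOCHI members higher were fewest, at 6, without L-778123 replicate 2 or simvastatin replicate 1.

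The median over the members was 0.34 in OVSAHO when a gene was read as the median over its probes. In KURAMOCHI it was 0.16 under quantile normalization and 0.16 in the authors' table. Between lines it was near 0, at -0.13 under quantile normalization, -0.14 in the authors' table and -0.10 over probes, and ranged from -0.11 to 0.0034 with single arrays left out, the sign turning without KURAMOCHI L-778123 replicate 1. The other medians stayed within 0.22 to 0.29 in OVSAHO, 0.07 to 0.12 in KURAMOCHI and 0.11 to 0.15 for the difference with single arrays left out.

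The sign turned, with a difference past the threshold before or after, for 4 members. With the median over probes, GABARAPL1 was at -0.019 and NBR1 at 0.25 between lines and AMBRA1 at -0.10 in OVSAHO, since their probes opposed each other. SQSTM1 between lines was at -0.13 under quantile normalization and at -0.14 in the authors' table, against 0.01, which had not passed. Among values that passed neither before nor after, the sign turned 15 times in OVSAHO (10 members), 18 times in KURAMOCHI (10), 34 times for the difference (14) and 8 times between lines (3). With the median over probes, where a pass goes by the median adjusted p, these included TFEB at 0.76 and ATG10 at -0.15 in OVSAHO, AMBRA1 at -0.31 in KURAMOCHI and MAP1LC3B at -0.25 between lines. No scaling moved the median of all genes by over 0.1.

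Same-numbered arrays correlated at 0.000848 to 0.0555 in their deviations from the group means, so they shared no large shift over the probes. Whether same-numbered samples were prepared together cannot be read from this, and the labels do not say. With the replicate number as a block, members higher and lower were 24 and 3 in OVSAHO, 10 and 5 in KURAMOCHI, 9 and 1 for the difference and 20 and 20 between lines. For ULK2 the OVSAHO signal was not well above background on any array, which limits any statement on it there.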
